A study of Mus musculus with 64 samples.

Results

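The late response of Ahr+/+ bone marrow-derived macrophages (BMMs) to heat-killed bacteria was read from 8 of the 64 RNA-seq libraries of the series, chosen by their sample titles. Of these 8 libraries, 4 came from BMMs cultured for 20 h with heat-killed cells of Salmonella enterica serovar Enteritidis (hk S.E., 10000000 per ml), and 4 came from unactivated BMMs of the same genotype and time point. All 8 cultures held 1000000 BMMs per ml and had received the vehicle DMSO at 0.01%, without an AhR ligand, for 6 h before hk S.E. was added or left out. The bone marrow came from female C57BL/6JRj mice of 8 to 12 weeks of age and was cultured for 6 days in medium supplemented with supernatant of L929 fibroblasts, a source of macrophage colony-stimulating factor (M-CSF). The study used 4 mice per genotype and harvested BMMs when more than 80% expressed CD11b and F4/80. Which mouse gave which library is not stated in the sources used here, so p-values measure a spread between libraries. That spread was estimated over all 64 libraries of the series, in 16 groups. For comparison, the same contrast of 4 against 4 libraries was taken from Ahr+/+ BMMs at 3 h and from BMMs labelled Ahr-/- at 20 h, with the same vehicle and doses. The Ahr-/- mice carried a germline deletion of Ahr, the aryl hydrocarbon receptor, and had been backcrossed to C57BL/6JRj.

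Macrophages detect bacteria through pattern recognition receptors such as the Toll-like receptors (TLRs). TLR signalling frees NF-kB and AP-1 to switch on cytokine and chemokine genes, and a branch through IRF3 starts the transcription of interferon-beta, which acts back on the cell through its receptor to raise interferon-stimulated genes. Over the following hours, feedback inhibitors restrain the early genes while metabolism, antigen presentation, receptor equipment and proliferation of the cell change. Dead bacteria carry such ligands but do not multiply or inject effector proteins.

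Interferon-stimulated genes and NF-kB target genes carry short binding sequences near their transcription start. To show the sequence level of the genes described below, stretches of promoters of genes that rose are given from RefSeq (build GRCm38.p6), each 5′ to 3′ on the strand of the gene and upstream of its start site. Capitals mark matches to the NF-kB consensus in Il6 and Cxcl10, and to the core of the interferon-stimulated response element (ISRE: GAAA, any 2 bases, GAAA), on either strand, in the others.
Il6, NF-kB consensus, chr5:30013030-30013113, plus strand: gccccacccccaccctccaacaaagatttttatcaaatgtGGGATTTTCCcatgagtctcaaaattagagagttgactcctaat
Cxcl10, NF-kB consensus, chr5:92348943-92349088, minus strand: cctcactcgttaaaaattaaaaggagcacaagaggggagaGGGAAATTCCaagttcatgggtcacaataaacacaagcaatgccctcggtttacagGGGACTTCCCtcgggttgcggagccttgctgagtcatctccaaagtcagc
Isg15, ISRE core, chr4:156200835-156200936, minus strand: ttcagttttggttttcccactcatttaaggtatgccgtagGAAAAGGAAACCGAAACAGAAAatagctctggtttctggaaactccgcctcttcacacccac
Rsad2, ISRE core, chr12:26456523-26456612, minus strand: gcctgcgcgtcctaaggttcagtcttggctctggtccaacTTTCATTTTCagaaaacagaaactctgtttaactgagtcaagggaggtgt
Ifit1, ISRE core, chr19:34640745-34640853, plus strand: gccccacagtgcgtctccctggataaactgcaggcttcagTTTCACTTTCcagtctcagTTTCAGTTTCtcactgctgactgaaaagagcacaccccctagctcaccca
Gbp2, ISRE core, chr3:142620564-142620653, plus strand: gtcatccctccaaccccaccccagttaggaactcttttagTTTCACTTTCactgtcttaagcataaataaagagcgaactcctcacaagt
The match in Il6 began 44 bases before the start site, those in Cxcl10 159 and 103 bases before it, and the 3 overlapping matches in Isg15 78, 72 and 66 bases before it. Cxcl10 also held an ISRE core, which began 213 bases before its start site and lay outside the stretch printed. Windows of 300 bases (250 before to 50 after a start site) were found for 9519 of 12011 tested protein-coding gene symbols, some with several start sites. The ISRE core lay in 17 of 35 windows of antiviral interferon-stimulated genes (48.6%) and in 9 of 11 windows of interferon-inducible GTPases (81.8%), against 3.34% of all 12155 windows. The NF-kB consensus lay in 4 of 7 windows of CXC chemokine genes (57.1%) and in 5 of 19 windows of cytokine genes (26.3%), but in only 1 of 9 windows of CC chemokine genes (11.1%), against 5.33% of all windows. In these same lists the ISRE core lay in 2 of 7 CXC windows (28.6%), 0 of 19 cytokine windows and 0 of 9 CC windows. TGANTCA, the AP-1 core read on both strands, lay in 65 of 455 windows (14.3%) of the genes called higher with a log2 fold change of at least 3 (4.19% of tested genes), against 5.41% of all windows. Of the same 455 windows, 10.8% held the NF-kB consensus and 11.9% the ISRE core. For genes called higher by at least 2-fold the shares were closer to those of all windows, at 7.8% for the AP-1 core, 7.45% for the NF-kB consensus and 7.16% for the ISRE core. A window can hold several of these motifs, which may overlap, and a match describes letters and is no evidence of binding.

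The 4 activated libraries held 21933112 to 47689280 counts on genes. Of the unactivated libraries, 3 held 21347014 to 24423183 counts and replicate 4 held 233047331, about 10 times as many. With that library thinned at random to the median of the others, 8440 genes were called in place of 8520, and with it left out, 8061. The library identifiers of unactivated replicates 1 and 2 lie outside the number range of the other 6 libraries and apart from each other. With only unactivated replicates 3 and 4 against the activated libraries, 7604 genes were called. Log2 CPM values of replicates correlated between 0.989 and 0.993 across genes within a group and between 0.858 and 0.875 between the groups. The share of counts on mitochondrial genes was 1.05% to 1.59% in unactivated and 0.531% to 0.880% in activated libraries, and its part in the results was not tested. The culture was checked against its markers. All 8 macrophage markers were tested and had summed levels of 25060 to 28260 counts per 1000000 (CPM) in unactivated and 17640 to 21560 CPM in activated libraries. Markers of mast cells and of erythroid cells were at 0 in all 8 libraries, and those of NK cells summed to at most 0.157 CPM. Neutrophil and precursor markers summed to 12.9 to 34.1 CPM in unactivated and 22.6 to 40.2 CPM in activated libraries. Of the 10 listed, 4 stood at 1 CPM or more in unactivated and 5 in activated libraries. Ly6g, Elane, Mpo and Retnlg were below the filter on low counts. The part of these markers in the results was not tested. Endothelial markers summed to 3.14 to 4.40 and 31.3 to 59.4 CPM, nearly all of it Kdr (VEGF receptor 2), while Cdh5, which defines endothelium, was not called. Summed markers of T cells (0.390 to 0.691 CPM in unactivated and 1.32 to 2.09 CPM in activated libraries), B cells (3.73 to 5.40 and 0.532 to 0.880 CPM), dendritic cells (0.220 to 0.523 and 0.859 to 1.85 CPM) and fibroblasts (0.346 to 0.923 and 1.79 to 2.75 CPM) also moved with activation at low levels, and their part in the results was not tested.

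After 20 h, 8520 of 14537 tested genes (58.6%) were called different between activated and unactivated BMMs at an adjusted p under 0.01 (edgeR quasi-likelihood test, Benjamini-Hochberg adjustment over all tested genes). Of these, 4347 were higher (29.9% of tested genes) and 4173 lower (28.7%), and the median log2 fold change of all tested genes was -0.00073. Changes of 2-fold or more were called for 2073 higher (14.3%) and 2565 lower (17.6%) genes. Levels are given throughout as CPM after TMM normalization, which scales libraries so that the typical gene does not change. When libraries were scaled to their total counts alone, the median of all genes moved to -0.37 and the calls split into 2655 higher and 6370 lower genes. Directions below are therefore relative to the typical gene. Counts of list members below are to be read beside the shares of 29.9% higher and 28.7% lower among all genes. In bulk RNA, fewer cells of a type and less RNA per cell cannot be told apart. Without overlap between the groups were 4827 genes (33.2%) that were higher in all 4 activated libraries than in any unactivated one, and 4748 (32.7%) that were lower.

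**Figure D1:**
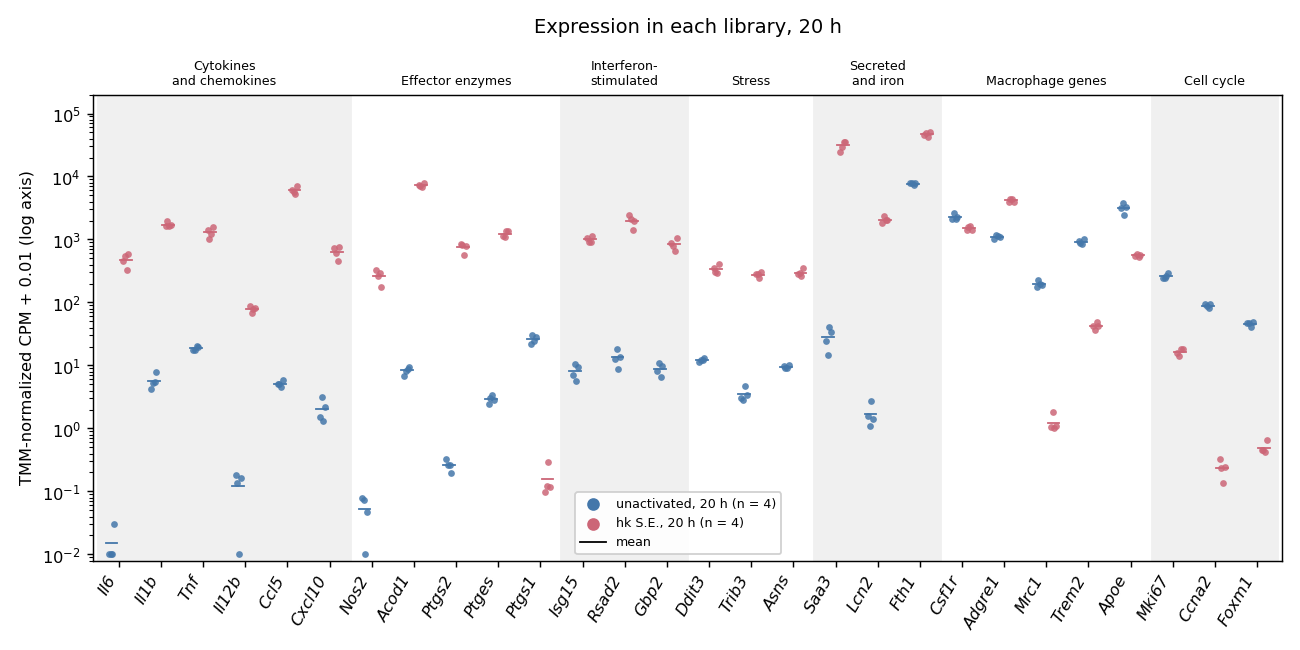
TMM-normalized CPM plus 0.01 on a log axis for 28 genes in the 4 unactivated (blue) and 4 activated (red) Ahr+/+ libraries at 20 h, with a bar at the mean. Points of the 2 groups lie apart for every gene shown, from Il6, at 0 in 3 unactivated libraries and above 300 CPM in all activated ones, to Ccna2, above 80 CPM in all unactivated and below 0.4 CPM in all activated libraries.

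Among genes of at least 10 CPM whose groups did not overlap, the largest fitted rise was that of Il6, the gene of interleukin-6 (chr5:30013114-30019981 on GRCm38). In activated libraries Il6 was at 455, 540.1, 332 and 595 CPM, and in unactivated libraries it was at 0, 0, 0 and 0.0202 CPM. The only reads of unactivated BMMs lay in the deepest library. The log2 fold change was 14.60 ± 0.49 (approximate SE from the fit of all libraries, n = 4 and 4 libraries compared, adjusted p = 2.3e-32). Nos2, the inducible nitric oxide synthase (chr11:78920787-78960254), was at 0.0698, 0.0628, 0 and 0.0371 CPM in unactivated and 330.1, 267, 295 and 174 CPM in activated libraries, a log2 fold change of 12.59 ± 0.56. Inhba, which encodes the activin A subunit (chr13:16011851-16031621), had 0.279, 0.126, 0.284 and 0.0910 CPM in unactivated and 960.0, 737, 462 and 665 CPM in activated libraries. Its log2 fold change was 12.30 ± 0.51 (adjusted p = 1.9e-28). Ptgs2, the inducible cyclooxygenase (chr1:150100031-150108227), rose from 0.314, 0.251, 0.248 and 0.189 CPM to 856, 816, 558 and 792 CPM (log2 fold change 11.72 ± 0.35). Il1a, encoding interleukin-1 alpha, rose from 0.523, 0.251, 0.426 and 0.155 CPM to 813, 697, 455 and 679 CPM (11.34 ± 0.34). The lack of overlap between the groups in these 5 genes follows from how they were chosen. Serpinb2, an inhibitor of plasminogen activators, was at 0, 0, 0.0710 and 0.0540 CPM in unactivated and 45.7, 99.8, 65.4 and 62.9 CPM in activated libraries, and its log2 fold change carried the far larger error of 10.43 ± 1.87.

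For 3 genes of this group no read was counted in any unactivated library, and the fold change is a lower bound from a floor of 3 counts over the 4 libraries. Il12a, the p35 subunit of interleukin-12, was at 15.8, 18.04, 19.7 and 19.1 CPM in activated libraries, at least 2369-fold higher. Shisa3 was at 19.9, 17.3, 14.9 and 22.2 CPM, at least 2436-fold higher. U90926 was at 25.6, 29.7, 20.5 and 20.5 CPM, at least 2995-fold higher. Heatr9 had 1 read in all unactivated libraries against 1700 in activated ones, a ratio of 5125-fold, with a 95% counting interval of 919 to 202600.

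The genes that fell furthest were mostly genes of dividing cells. Pimreg was at 28.4, 25.2, 22.8 and 30.7 CPM in unactivated libraries and was represented by 2 reads in all activated libraries, lower by 1882-fold, with a 95% counting interval of 521 to 15550. Cenpf, a kinetochore protein of mitosis (chr1:189640606-189688086), fell from 45.3, 45.2, 42.2 and 51.1 CPM to 0, 0, 0 and 0.0852 CPM, a log2 fold change of -10.36 ± 0.42 (adjusted p = 7.6e-29). In 3 of 4 activated libraries no Cenpf read was counted. Esco2, which acetylates cohesin, fell from 10.4 ± 0.410 CPM (SD, n = 4) to 2 reads, lower by 665-fold, with a 95% counting interval of 184 to 5493. E2f7, a repressor of E2F target genes, was left with 3 reads, lower by 544-fold, with a 95% counting interval of 186 to 2640.0. Pbk, Ccna2 and Pclaf, all of them expressed in cycling cells, had log2 fold changes of -8.85, -8.64 and -8.60. Outside the cell cycle, Nptx1, a pentraxin, fell from 52.2, 51.2, 57.8 and 48.0 CPM to 0.0449, 0.0747, 0.0629 and 0 CPM (log2 fold change -10.23 ± 0.37). Slco2b1, an organic anion transporter, and Pcp4l1 had log2 fold changes of -9.49 ± 0.45 and -8.63 ± 0.24.

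**Figure D2:**
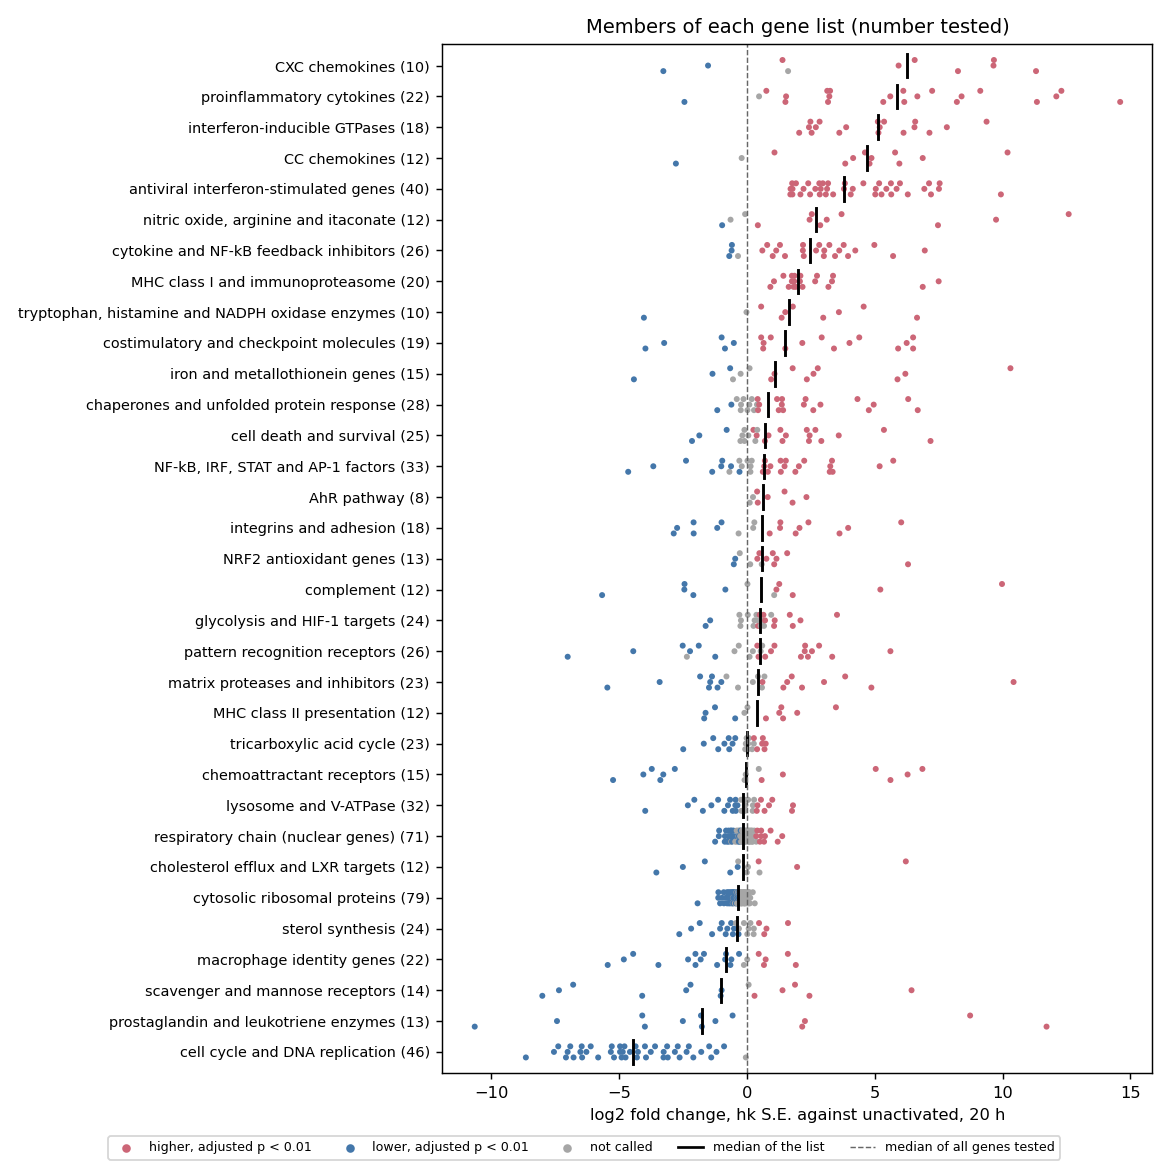
Log2 fold change of every tested member of each gene list at 20 h, with red and blue points for called higher and lower genes, gray points for genes not called, a black bar at the median of the list and a dashed line at the median of all tested genes. Medians run from -4.46 for cell cycle genes to 6.25 for CXC chemokines, and all 40 antiviral genes and all 18 GTPases lie to the right of 0.

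Cytokine genes made up 4 of the 10 genes with the largest rises above. Of 27 proinflammatory cytokine genes listed, 22 passed the filter on low counts, and of these 20 rose and 1 fell. The median log2 fold change was 5.86, or 5.67 with the 3 genes at 0 in unactivated libraries set to their bounds. Il1b, the precursor of interleukin-1 beta, was at 4.15, 5.34, 5.54 and 7.78 CPM in unactivated and 1610.1, 1988, 1635 and 1681 CPM in activated libraries (log2 fold change 8.21 ± 0.36, adjusted p = 2.6e-27). Tnf, tumor necrosis factor, was at 17.6, 17.6, 20.0 and 19.7 CPM and 1409.7, 1024, 1208 and 1567 CPM (log2 fold change 6.12 ± 0.15). Il12b, the p40 subunit shared by interleukin-12 and interleukin-23, was at 0.174, 0.126, 0 and 0.155 CPM and 89.2, 67.3, 77.5 and 82.9 CPM (log2 fold change 9.13 ± 0.40). For each of these genes the lowest activated library exceeded the highest unactivated one. Colony-stimulating factors 2 and 3 stayed below 2 CPM. Csf2 (GM-CSF) had no read in unactivated libraries and was at 1.37 ± 0.379 CPM in activated ones (SD, n = 4), at least 185-fold higher, and Csf3 (G-CSF) was at 1.05 ± 0.116 CPM there. Ifng, Il17a, Il33, Il36g and Tslp did not pass the filter.

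Inhibitors that dampen cytokine and NF-kB signalling mostly rose. Of 26 tested, 22 rose, 3 fell and 1 did not pass the test (median log2 fold change 2.47). Socs3, which blocks signalling of the interleukin-6 receptor family, was at 3.59, 4.68, 4.08 and 4.08 CPM in unactivated and 471, 541, 518 and 515 CPM in activated libraries (log2 fold change 6.96 ± 0.20, adjusted p = 2.1e-35). Socs1, an inhibitor of Janus kinases, was at 0.370 ± 0.158 CPM in unactivated and 22.7 ± 1.85 CPM in activated libraries, a log2 fold change of 5.72 ± 0.31. Il1rn, the interleukin-1 receptor antagonist, rose from 42.3, 51.2, 48.5 and 42.2 CPM to 1762, 1793, 903 and 1371 CPM, with activated replicate 3 the lowest of its group, and its log2 fold change was 4.99 ± 0.30. Tnfaip3, the deubiquitinase A20, rose by 3.96, Nfkbiz, a nuclear IkB protein, by 4.24, and Irak3, the kinase-dead IRAK-M, by 3.45 on the log2 scale. Il10, the anti-inflammatory interleukin-10, was at 0.907, 0.817, 1.10 and 1.13 CPM and 2.83, 4.33, 6.63 and 4.64 CPM, a log2 fold change of 2.20 ± 0.32. It thus remained below 7 CPM in all activated libraries.

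Most chemokine genes rose. Of 12 CC chemokine genes tested, 10 rose and 1 fell (or 10 and 2 with libraries scaled to total counts), and of 10 CXC or CX3C genes, 7 rose and 2 fell, with 1 fall when activated replicate 3 was left out. Ccl5 (RANTES), which draws T cells and monocytes (chr11:83525778-83530518), was at 6018, 5684, 5268 and 7126 CPM in activated against 4.99, 5.00, 4.61 and 5.78 CPM in unactivated libraries (log2 fold change 10.19 ± 0.31, adjusted p = 2.7e-34). Ccl3 rose to 1433 ± 393 CPM, Ccl4 to 502 ± 100.2 CPM and Ccl2, a monocyte attractant, to 402 ± 99.1 CPM. Its neighbours in function Ccl7 and Ccl8, ligands of CCR2 and related receptors, had log2 fold changes of 5.80 and 6.88. Cxcl10, which attracts T cells bearing CXCR3, was at 1.5, 3.14, 1.31 and 2.21 CPM in unactivated and 729.5, 607, 451 and 755 CPM in activated libraries (log2 fold change 8.26 ± 0.41). The other CXCR3 ligands, Cxcl9 and Cxcl11, rose from near 0 to 46.8 ± 4.36 and 36.9 ± 14.4 CPM. The neutrophil attractants Cxcl1, Cxcl2 and Cxcl3 rose to 43.8 ± 8.11, 522 ± 39.7 and 64.2 ± 19.2 CPM. Ccl22, a ligand of CCR4, was uneven between activated libraries, at 17.5, 13.7, 14.4 and 35.2 CPM, above 0.698, 0.471, 0.568 and 0.809 CPM in unactivated ones. Cxcl14 went the other way, from 51.8 ± 3.86 to 5.40 ± 0.421 CPM (log2 fold change -3.27 ± 0.20). Cxcl5 had at most 4 reads in either group, which allows no comparison.

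Receptors for these and other attractants split. Of 15 tested, 6 rose (40%, against 29.9% of all genes) and 6 fell (40%, against 28.7%). Fpr1, a receptor for bacterial formyl peptides, rose from 4.53 ± 0.644 to 529 ± 91.8 CPM (log2 fold change 6.86 ± 0.16), with Fpr2 (6.29) and Ccr7 (5.04), the receptor for lymph node chemokines. Ccrl2, which presents chemerin, rose to 437 ± 89.0 CPM (5.62). Cx3cr1, the fractalkine receptor, fell from 197 ± 9.29 to 14.9 ± 6.72 CPM, and Cxcr4, Ccr3 and C5ar2 had log2 fold changes of -3.39, -5.23 and -4.05.

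Sensors of bacteria and nucleic acids moved in both directions. Of 26 pattern recognition receptors tested, 13 rose, 6 fell and 7 did not pass the test. Clec4e (Mincle), a receptor for microbial glycolipids, was at 75.1, 91.2, 93.9 and 72.9 CPM in unactivated and 4777, 4204, 3238 and 4084 CPM in activated libraries (log2 fold change 5.61 ± 0.31). Tlr2, the lipoprotein receptor, rose from 87.6 ± 10.96 to 621 ± 74.2 CPM, and the cytosolic RNA sensors Ddx58 (RIG-I) and Ifih1 (MDA5) had log2 fold changes of 3.34 and 2.39. Tlr5, the flagellin receptor, was at 3.60 ± 1.23 CPM in unactivated libraries and kept 3 reads in activated ones, lower by 124-fold, with a 95% counting interval of 42.3 to 601. Clec7a (dectin-1), the receptor for fungal beta-glucans, fell from 121, 135, 118 and 122 CPM to 4.76, 5.98, 5.56 and 6.39 CPM, and Tlr13, a sensor of bacterial ribosomal RNA, from 433 ± 39.0 to 76.1 ± 9.07 CPM.

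Transcription factors of the NF-kB, IRF, STAT and AP-1 families showed 18 rises and 8 falls among 33 genes, or 16 and 13 with libraries scaled to total counts. Irf7, which drives interferon-alpha genes, was at 37.9, 59.6, 23.6 and 39.8 CPM in unactivated and 2208, 2153, 2039.6 and 2112 CPM in activated libraries (log2 fold change 5.72 ± 0.32). Batf rose by 5.19, Stat2 by 3.33 and Nfkb2, which encodes p100, by 3.24 on the log2 scale. Fos, an AP-1 subunit of the immediate early response, fell from 327 ± 25.6 to 25.9 ± 9.69 CPM (-3.66 ± 0.26), and Egr2 from 16.1 ± 2.63 to 0.642 ± 0.225 CPM.

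Interferon-stimulated genes moved as a body. All 40 antiviral genes listed were tested and all rose, without overlap of the groups, where 4347 of 14537 tested genes rose. Their median log2 fold change was 3.82. Isg15, a ubiquitin-like modifier whose promoter is printed above, was at 6.98, 10.5, 5.64 and 9.44 CPM in unactivated and 1047, 923, 907 and 1154 CPM in activated libraries (log2 fold change 6.94 ± 0.26, adjusted p = 3.9e-30). Rsad2 (viperin) was at 12.8, 18.3, 8.73 and 13.8 CPM and 2411, 2077, 1427 and 1979.6 CPM (7.20 ± 0.52), and Ifit1, which binds foreign RNA ends, at 7.88, 12.03, 4.44 and 8.35 CPM and 584, 577, 421 and 499.8 CPM (5.99 ± 0.44). Slfn4, of the Schlafen family, had the largest fold change of the list, from 0.418 ± 0.191 to 369 ± 80.8 CPM (9.93 ± 0.62). Oasl1, of the oligoadenylate synthetase family, and Ifi44 rose by 7.12 and 7.54 on the log2 scale. Slfn4 has close copies in the genome, so its single value is uncertain.

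Interferon-inducible GTPases, which attack the membranes around intracellular microbes, also rose in 18 of 18 cases, with a median log2 fold change of 5.13. Gbp2 was at 8.13, 10.8, 6.53 and 9.83 CPM in unactivated and 894, 801, 667 and 1038 CPM in activated libraries (6.58 ± 0.32). Gbp5 rose from 2.55 ± 0.933 to 243 ± 37.0 CPM (6.55 ± 0.29), while Iigp1 reached 24.7 ± 5.73 CPM (5.19 ± 0.67). Gbp11 was at 0 in unactivated and at 2.74 ± 0.891 CPM in activated libraries, at least 353-fold higher. Some of these genes are near copies of each other, so the share of a single member among such copies is uncertain.

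Genes of antigen presentation to CD8 T cells rose throughout, and those for CD4 T cells did so in part. All 20 genes of MHC class I and the immunoproteasome rose (median log2 fold change 1.99). B2m, the light chain of class I molecules, was at 1555, 1661, 1378 and 1448 CPM in unactivated and 4984, 4954, 4037 and 4802 CPM in activated libraries (1.64 ± 0.07). Tap1, the peptide transporter, rose from 71.7 ± 9.04 to 654 ± 26.5 CPM, H2-K1 from 832 ± 92.2 to 3760.4 ± 258 CPM, and the nonclassical H2-Q6 and H2-Q7 by 7.5 and 6.88 on the log2 scale, both of them near-identical genes. Of 12 class II genes, 6 rose and 4 fell, or 5 and 5 with libraries scaled to total counts. H2-Ab1, a class II beta chain, was at 4.64, 5.34, 4.86 and 5.90 CPM and 55.8, 48.0, 66.2 and 64.3 CPM (3.48 ± 0.35), and H2-Aa, an alpha chain, rose to 11.9 ± 4.94 CPM (1.27 ± 0.24). Ciita, the regulator of class II genes, rose from 0.390 ± 0.0719 to 1.604 ± 0.667 CPM, whereas H2-DMa, which loads peptides, fell from 28.3 ± 2.17 to 11.9 ± 1.19 CPM and Ifi30, a lysosomal reductase for antigens, fell from 107 ± 9.77 to 35.0 ± 4.37 CPM.

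Among surface molecules that meet T cells, 14 of 19 rose and 5 fell. Cd40, the receptor for T cell help, was at 1.67, 2.83, 2.45 and 1.88 CPM in unactivated and 206, 159, 159 and 262 CPM in activated libraries (6.50 ± 0.20). Cd274 (PD-L1), the ligand of the inhibitory receptor PD-1, was at 28.6, 30.2, 32.6 and 26.0 CPM and 1958, 1948, 1616 and 1544 CPM (5.92 ± 0.18). Every activated library stood above every unactivated one for both. Cd200 rose by 6.50, Slamf1 by 6.25, Cd69, an early activation antigen, by 4.40 and Slamf7 by 4.01 on the log2 scale, and Havcr2 (TIM-3) fell from 54.1 ± 2.29 to 3.49 ± 0.642 CPM.

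Genes around nitric oxide, arginine and itaconate mostly rose. Of 12 genes, 9 rose and 1 fell, or 8 and 3 with libraries scaled to total counts. Acod1, which makes itaconate from an intermediate of the tricarboxylic acid cycle (chr14:103046977-103056573), was at 6.80, 8.30, 8.73 and 9.55 CPM in unactivated and 7259.7, 6939, 6704 and 7917 CPM in activated libraries (log2 fold change 9.74 ± 0.28, adjusted p = 2.0e-35). Slc7a2, the arginine transporter of activated macrophages, rose from 6.61 ± 0.658 to 1169 ± 211 CPM (7.47 ± 0.17), Ass1, which regenerates arginine from citrulline, by 3.70, and Gch1, which starts the synthesis of the Nos2 cofactor tetrahydrobiopterin, by 3.12. Arg1, which competes for arginine with Nos2, rose from 2.55, 3.96, 5.08 and 2.185 CPM to 11.4, 23.9, 33.3 and 9.18 CPM (2.54 ± 0.43), and its activated libraries spread more than 3-fold. Of 10 genes of tryptophan and histamine enzymes and the NADPH oxidase, 8 rose, among them Cybb, the oxidase subunit gp91phox, from 632 ± 39.9 to 5006 ± 352 CPM, and Sod2, which disposes of mitochondrial superoxide, from 59.9 ± 4.04 to 1419 ± 119 CPM. Hdc, which makes histamine, rose from 0.0429 ± 0.0451 to 3.88 ± 1.15 CPM (6.65 ± 0.43). Kmo, of the kynurenine pathway, fell from 1.83 ± 0.481 to 0.104 ± 0.0455 CPM (-4.03 ± 0.50).

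The enzymes of lipid mediators fell more often than they rose. Of 13 tested, 4 rose and 9 fell. Beside Ptgs2, the rises included Ptges, the inducible prostaglandin E synthase, from 2.41, 3.02, 3.37 and 2.84 CPM to 1119.7, 1100.3, 1360.3 and 1358 CPM (8.73 ± 0.36), and Pla2g4a, the phospholipase that frees arachidonic acid (2.27 ± 0.14). Ptgs1, the constitutive cyclooxygenase, fell from 21.9, 30.2, 24.8 and 28.3 CPM to 0.0898, 0.112, 0.283 and 0.106 CPM (-7.43 ± 0.32). Hpgd, which degrades prostaglandins, was at 7.39, 8.23, 4.69 and 6.13 CPM in unactivated libraries and at 0 in all activated ones, at least 268-fold lower. The leukotriene genes Alox5, Alox5ap and Ltc4s had log2 fold changes of -4.09, -2.50 and -3.99.

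Glycolysis and the hypoxia factor HIF-1 showed 10 rises and 2 falls among 24 genes, or 5 and 4 with libraries scaled to total counts. Pfkfb3, which speeds glycolysis, rose from 28.3 ± 0.922 to 325 ± 66.2 CPM (3.52 ± 0.21), and the hexokinases Hk3 and Hk2 by 2.096 and 1.68 on the log2 scale. Slc2a1, the glucose transporter GLUT1, rose from 45.3 ± 2.81 to 157 ± 20.3 CPM. Pdk1, a kinase that inhibits pyruvate dehydrogenase, fell from 68.3 ± 4.84 to 25.2 ± 6.56 CPM. Of 23 genes listed for the tricarboxylic acid cycle, among them the cytosolic Idh1 outside the mitochondrial cycle, 6 rose (26.1%) and 9 fell (39.1%). These shares stand against 29.9% and 28.7% of all genes. With libraries scaled to total counts 3 rose and 15 fell. Tested against a change of at least 2-fold, 0 of the 6 rises and 2 of the 9 falls were left. Idh1, the cytosolic isocitrate dehydrogenase, fell from 162, 179, 173 and 179 CPM to 29.2, 30.0, 32.0 and 32.2 CPM (-2.49 ± 0.10), with Idh2 (-1.32) and Idh3a (-0.88). Of 71 nuclear genes of the respiratory chain, 10 rose and 22 fell (median log2 fold change -0.17), a share of falls of 31.0% beside 28.7% of all genes, or 5 and 45 with libraries scaled to total counts. Of 79 cytosolic ribosomal protein genes, none rose and 34 fell (43.0%), with a median of -0.33, and with libraries scaled to total counts 67 fell. Without activated replicate 2 the falls numbered 22, and without unactivated replicate 4 they numbered 21, with 1 rise in each case. Ribosomal protein genes share reads with many pseudogenes, so their single values are uncertain.

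Sterol genes fell more often than they rose. Of 24 genes of cholesterol synthesis, 12 fell (50.0%, against 28.7% of all genes) and 4 rose. With libraries scaled to total counts 16 fell and 2 rose. Dhcr7, a reductase of the closing steps, fell from 17.3 ± 0.299 to 3.81 ± 0.605 CPM. Mvd, of the mevalonate pathway, rose from 7.38 ± 0.783 to 22.6 ± 2.096 CPM (1.61 ± 0.19). Among 12 genes of cholesterol efflux and the liver X receptor, 3 rose and 5 fell. Ch25h, which makes 25-hydroxycholesterol and is interferon-inducible, was at 1.22, 1.41, 1.14 and 1.24 CPM in unactivated and 106, 114, 63.0 and 91.0 CPM in activated libraries (6.22 ± 0.25). Apoe, the apolipoprotein that accepts cholesterol, fell from 3134, 3854, 2449.6 and 3220.1 CPM to 547, 586, 522 and 577 CPM (-2.50 ± 0.28). Nr1h3, which encodes liver X receptor alpha, rose from 25.8 ± 2.54 to 101 ± 8.40 CPM. Abca1, the cholesterol exporter, was not called (0.49 ± 0.17, adjusted p = 0.011).

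Iron genes moved in both directions. Of 15 iron and metallothionein genes, 9 rose and 3 fell, or 8 and 5 with libraries scaled to total counts. Lcn2, the lipocalin that binds bacterial siderophores, was at 1.57, 1.07, 2.73 and 1.39 CPM in unactivated and 1819.5, 2398, 2048 and 2012 CPM in activated libraries (10.31 ± 0.47). Fth1, the ferritin heavy chain (chr19:9980598-9985098), rose from 7853, 7781, 7363 and 7758 CPM to 45010, 48495, 42141 and 51530 CPM (2.61 ± 0.10), whereas Slc40a1 (ferroportin), the iron exporter, fell from 108, 137, 82.1 and 108 CPM to 7.19, 4.82, 4.49 and 4.09 CPM (-4.42 ± 0.20). Cp, ceruloplasmin, rose from 4.51 ± 0.697 to 336 ± 36.4 CPM (6.20 ± 0.21). Hmox1, heme oxygenase, rose from 303 ± 23.7 to 1541 ± 223 CPM. Of 13 targets of the antioxidant factor NRF2, 8 rose, led by Slc7a11, the cystine importer, from 3.35, 4.84, 6.35 and 2.34 CPM to 361, 344, 301 and 276 CPM (6.30 ± 0.28).

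Chaperone and unfolded protein response genes rose more often than they fell. Of 28 chaperone and unfolded protein response genes, 17 rose and 2 fell, or 14 and 8 with libraries scaled to total counts. Ddit3 (CHOP), a stress transcription factor, was at 11.5, 12.4, 12.2 and 13.4 CPM in unactivated and 349, 301, 292 and 411 CPM in activated libraries (4.77 ± 0.18). Asns, asparagine synthetase, was at 9.73, 9.24, 9.12 and 10.2 CPM and 288, 294, 263 and 349 CPM (4.96 ± 0.16), and Atf4, the factor of the integrated stress response, at 116 ± 8.06 and 853 ± 92.0 CPM (2.88 ± 0.11). Trib3 and Chac1, targets of ATF4 and CHOP, and Ppp1r15a (GADD34), which reverses the translational block of this response, rose by 6.31, 6.68 and 4.33 on the log2 scale. Hspa1a, the inducible HSP70, was at 0.691 ± 0.240 and 4.22 ± 2.20 CPM (2.60 ± 0.32), a value that its near copy Hspa1b makes uncertain.

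Genes of cell death and survival rose in 15 and fell in 3 of 25 cases, or in 13 and 7 with libraries scaled to total counts. The 3 largest rises were those of survival genes. Bcl2a1a, of the BCL2 family, rose from 1.08, 1.38, 1.597 and 1.44 CPM to 196, 198, 167 and 247 CPM and Bcl2a1d by 5.36, although these are near-identical copies. Cflar, which blocks caspase-8, rose from 59.4 ± 4.76 to 716 ± 61.1 CPM (3.59 ± 0.20). Of killing factors, Mlkl, the executor of necroptosis, rose by 2.91, Casp4 (caspase-11), a cytosolic receptor for lipopolysaccharide, by 2.68, and the death receptor Fas by 2.45.

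The cell cycle list had the highest share of falls. Of 46 genes of replication and mitosis, 45 fell, none rose and E2f1 did not pass the test, with a median log2 fold change of -4.46 and no overlap of the groups for the 45 genes that fell. Ccna2 (cyclin A2) was at 93.0, 86.5, 82.6 and 95.4 CPM in unactivated and 0.314, 0.224, 0.126 and 0.234 CPM in activated libraries (-8.64 ± 0.36, adjusted p = 4.4e-28). Mki67, the proliferation marker Ki-67, was at 246, 244, 268 and 294 CPM and 15.7, 14.1, 18.4 and 18.1 CPM (-3.99 ± 0.20). Foxm1, a transcription factor of the G2 phase, fell from 46.9, 46.8, 41.2 and 49.3 CPM to 0.449, 0.448, 0.409 and 0.639 CPM (-6.51 ± 0.21). Plk1, Ccnb2, Cdc20 and Birc5, all of mitosis, had log2 fold changes of -7.38, -7.54, -6.91 and -6.78.

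Genes that mark resident and resting macrophages fell in part. Of 22 macrophage identity genes tested, 15 fell (68.2%, against 28.7% of all genes) and 5 rose. The rises numbered 2 with libraries scaled to total counts, and 3 without activated replicate 2 or with unactivated replicates 3 and 4 alone. Csf1r, the M-CSF receptor, was at 2119, 2593, 2120.4 and 2308 CPM in unactivated and 1406, 1580.3, 1618 and 1400.5 CPM in activated libraries (-0.61 ± 0.09), a fall without overlap. Trem2, a lipid receptor of phagocytes, fell from 932, 880.4, 847 and 1024 CPM to 42.3, 36.5, 48.3 and 41.8 CPM (-4.45 ± 0.13). Mertk and its ligand gene Gas6, which serve the uptake of dead cells, had log2 fold changes of -3.46 and -4.81. Emp1 fell from 337 ± 40.03 to 7.80 ± 1.54 CPM and Folr2, a folate receptor of tissue macrophages, from 84.6 ± 3.82 to 21.0 ± 1.21 CPM. Adgre1, which encodes F4/80, rose from 1015, 1186, 1139 and 1088 CPM to 3998, 4333, 4415 and 3941 CPM (1.91 ± 0.07).

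Scavenger receptors showed 5 rises and 8 falls among 14 genes. Mrc1, the mannose receptor (chr2:14229392-14332057), fell from 178, 230.2, 198 and 189.7 CPM to 1.03, 1.79, 1.01 and 1.09 CPM (-7.35 ± 0.27, adjusted p = 7.4e-31). Marco, a scavenger receptor for bacteria, moved the other way, from 8.89, 7.64, 18.8 and 16.7 CPM to 795, 752, 1639.7 and 1356 CPM (6.44 ± 0.47), with activated replicates 3 and 4 the highest. Clec10a, a lectin for galactose, fell from 8.35 ± 1.29 to 0.0787 ± 0.0396 CPM and Cd5l, a secreted scavenger protein, from 42.2 ± 8.10 to 2.47 ± 0.445 CPM. Cd36 fell from 712 ± 57.7 to 137 ± 17.8 CPM and Lrp1 from 1695 ± 99.7 to 368 ± 67.5 CPM. Of 12 complement genes, 5 rose and 5 fell (41.7% each, against 29.9% and 28.7% of all genes), or 3 and 6 with libraries scaled to total counts. Without activated replicate 4, 3 rises were left, as on the variance-stabilized values. C3, the central component, rose from 62.4, 96.0, 89.4 and 95.5 CPM to 3312, 3236, 3319.8 and 2933 CPM (5.22 ± 0.16) and Cfb, factor B of the alternative pathway, from 0.141 ± 0.128 to 147 ± 17.7 CPM (9.98 ± 0.26). C1qa, C1qb and C1qc, the recognition subunits of the classical pathway, had log2 fold changes of -2.09, -2.44 and -2.45.

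Matrix, lysosome and adhesion genes were mixed. Of 23 matrix protease and inhibitor genes, 9 rose (39.1%, against 29.9% of all genes) and 8 fell (34.8%, against 28.7%). Mmp13, a collagenase, rose from 7.45 ± 1.91 to 216 ± 18.4 CPM (4.87 ± 0.24), Slpi, an inhibitor of elastase, from 5.91 ± 1.36 to 47.7 ± 14.4 CPM (3.02 ± 0.32), and Plau, the urokinase, fell from 232, 175, 261 and 226 CPM to 5.57, 5.01, 5.37 and 4.47 CPM (-5.46 ± 0.17). Timp2, an inhibitor of matrix proteases, fell from 328 ± 10.2 to 30.8 ± 4.13 CPM. Of 32 lysosome and proton pump genes, 8 rose and 14 fell, or 5 and 19 with libraries scaled to total counts. Among them were log2 fold changes of -2.31 for Lipa, the lysosomal acid lipase, -1.72 for Ctsl and 1.76 for Ctsz, both cathepsins. Of 18 adhesion genes, 9 rose (50%) and 6 fell (33.3%). Their log2 fold changes included 3.62 for Itgal, the LFA-1 alpha chain, 3.96 for Vcam1, the ligand of VLA-4, and -2.86 for Itgax (CD11c). Of 8 tested genes of the AhR pathway, 6 rose and none fell, or 3 and 0 with libraries scaled to total counts, and the Cyp1 genes did not pass the filter. Ahr itself was at 2.62, 4.52, 4.72 and 3.34 CPM in unactivated and 14.9, 12.7, 12.7 and 11.9 CPM in activated libraries (1.79 ± 0.20, adjusted p = 3.8e-11).

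Levels between genes were compared per kb of exon. In activated libraries the highest mean levels were those of Fth1 at 13489, Saa3, an acute phase apolipoprotein, at 11989, Ftl1, the ferritin light chain, at 9367, Lyz2 (lysozyme) at 9161 and Ccl5 at 6275 CPM per kb of exon. Saa3 was at 10.9 CPM per kb in unactivated libraries. By library it was at 24.3, 14.7, 40.6 and 34.2 CPM in unactivated and 24928, 29648, 35086 and 35315 CPM in activated BMMs (10.10 ± 0.49). In unactivated libraries the order was Lyz2 at 16105, Ftl1 at 8706, Spp1 (osteopontin) at 4578, mt-Co1 at 3688 and Psap (prosaposin) at 3423 CPM per kb. Spp1 fell to 717 CPM per kb (-2.67 ± 0.18), and Acod1 rose to 2747 CPM per kb. The ranges of Fth1 and Saa3 overlapped in activated libraries, and Ftl1 was not called between the groups (0.11 ± 0.12, adjusted p = 0.46).

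**Figure D3:**
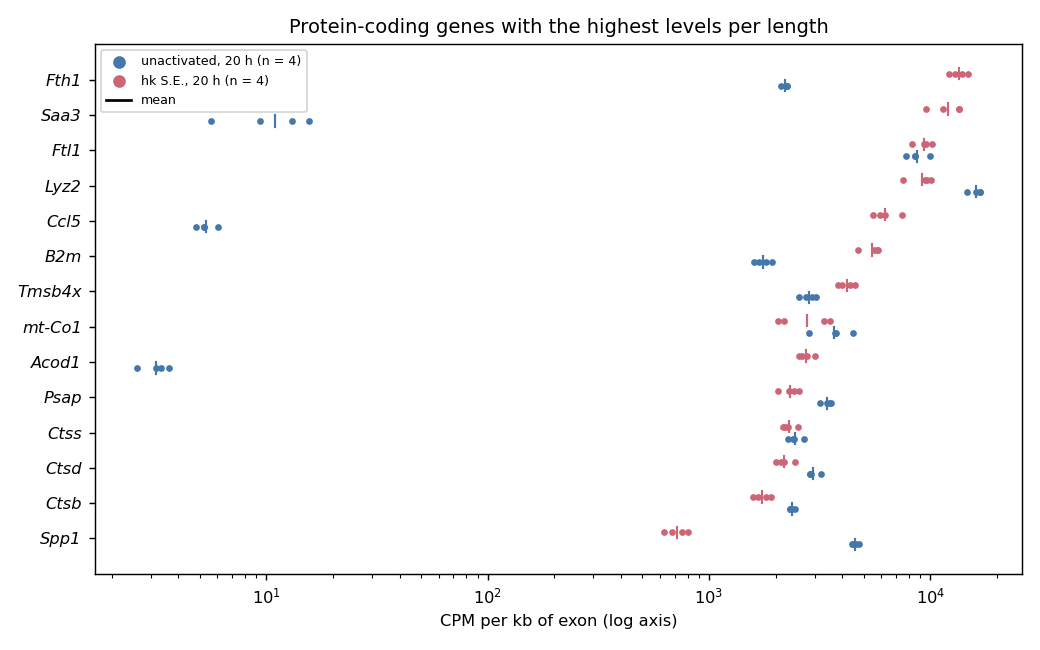
CPM per kb of exon on a log axis for the 14 protein-coding genes that were among the 10 highest in either group at 20 h, in the 4 unactivated (blue) and 4 activated (red) libraries, with a bar at the mean. Saa3, Ccl5 and Acod1 lie below 20 CPM per kb in unactivated and above 2000 CPM per kb in activated libraries, and Spp1 falls to 717.

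The response at 20 h was compared with that at 3 h in libraries of Ahr+/+ BMMs, to show where the late response differed from the early one. The difference between activated and unactivated libraries itself differed between the times for 6950 genes (47.8% of those tested), more positive at 20 h for 3849 (26.5%) and more negative for 3101 (21.3%). Scaled to total counts, these were 5406 and 2253. At 3 h 8222 genes were called (56.6%), 3525 higher (24.2%) and 4697 lower (32.3%). Of the 4347 genes higher at 20 h, 2196 (50.5%) were also higher at 3 h, where they made up 62.3% of the genes higher at that time, and 716 (16.5%) were lower at 3 h. Of the 4173 lower genes, 2275 (54.5%) were also lower at 3 h and 371 (8.89%) were higher there. No library is shared between the 2 time points. At 3 h, activated replicates 1 and 2 and unactivated replicates 2 and 4 have identifiers outside the number range of the other libraries. The part of this in the comparison was not tested.

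Differences of inflammatory genes moved both ways between the times. Of 22 cytokine genes, the difference was more negative at 20 h for 9 and more positive for 4. Tnf changed by -1.57 ± 0.17 between the times (adjusted p = 1.1e-11) and Il1b by -1.31 ± 0.39, while Il6 (3.48 ± 0.92) and Inhba (6.70 ± 0.64) had more positive differences at 20 h. The call for Il1b was lost without unactivated replicate 4 of 20 h (-1.09) or unactivated replicate 1 of 3 h (-1.17), and that for Il6 without unactivated replicate 3 of 3 h (2.86). For Il6 the unactivated level at 20 h rests on few reads, all of them in the deepest library. Of the chemokines, Cxcl10 changed by -2.58 ± 0.46, Ccl4 by -3.25 ± 0.23 and Ccl5 by 2.25 ± 0.31, so that Ccl5 went against the other 2. Of 26 feedback inhibitors, 17 had more negative and 3 more positive differences at 20 h, and of 40 antiviral genes 13 had more negative and 10 more positive ones. Among all tested genes, 21.3% were more negative and 26.5% more positive. MHC class I genes had more positive differences in 10 of 20 cases and more negative ones in 1.

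The largest positive differences between the times were those of Trib3, Soat2, Chac1, Inhba and Slc1a2. Trib3, a pseudokinase of the stress response, was lower in activated libraries at 3 h (-1.97 ± 0.21) and higher at 20 h (6.31 ± 0.21), a difference of 8.28 ± 0.29 (adjusted p = 1.8e-30). At 3 h it was at 12.6, 9.28, 20.1 and 10.1 CPM in unactivated and 3.80, 2.66, 3.95 and 2.85 CPM in activated libraries, against 3.03, 2.83, 4.72 and 3.44 CPM and 278, 279, 248 and 303 CPM at 20 h. Chac1 changed by 7.58 ± 0.62, Ddit3 by 5.77 ± 0.24, Asns by 4.51 ± 0.21 and Atf4 by 2.74 ± 0.15, and 13 of 28 genes of the chaperone and unfolded protein response list had more positive and 3 more negative differences at 20 h. Soat2, which esterifies cholesterol, was at 0.174, 0.0943, 0.142 and 0.206 CPM in unactivated and 62.8, 69.7, 50.5 and 57.8 CPM in activated libraries at 20 h (8.35 ± 0.24), and it was not called at 3 h (0.17 ± 0.27, adjusted p = 0.6). Slc1a2, a glutamate transporter, rose from 0, 0.0628, 0 and 0.0303 CPM to 39.0, 32.4, 27.3 and 37.4 CPM at 20 h and changed by 6.63 ± 1.77, a call that was lost without unactivated replicate 3 of 3 h (5.49). Saa3, Lcn2 and Hp, which encode secreted acute phase proteins, changed by 6.15 ± 0.51, 6.36 ± 0.53 and 4.89 ± 0.41.

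Downward, the largest differences between the times were those of Gprc5c, Nptx1, Pimreg, Cenpf and F3. Gprc5c was at 10.2, 16.8, 9.58 and 11.96 CPM in unactivated and 0.0449, 0, 0.0943 and 0.0426 CPM in activated libraries at 20 h, and changed by -8.89 ± 0.39 (adjusted p = 1.9e-26). Nptx1 changed by -8.69 ± 0.45 and Cenpf by -8.38 ± 0.53. F3, tissue factor of coagulation, was at 15.5, 15.7, 10.4 and 9.89 CPM in activated libraries at 3 h and had 3 reads in those of 20 h. Of 46 cell cycle genes, 42 had more negative and 2 more positive differences at 20 h, with a median log2 fold change of -0.97 at 3 h and -4.46 at 20 h. At 3 h, 33 of these 46 genes were already called lower and 1 higher, where 32.3% of all genes were lower and 24.2% higher. Mki67 was not among those called at 3 h (-0.07 ± 0.18, adjusted p = 0.76) and changed by -3.92 ± 0.26. The receptor genes Mrc1 and Trem2 had log2 fold changes of -0.08 and -0.42 at 3 h, and their differences changed by -7.27 ± 0.32 and -4.03 ± 0.17. Macrophage identity genes had more negative differences at 20 h in 16 of 22 cases and more positive ones in 3. Ptgs1 (-6.16 ± 0.40), C1qb (-2.66 ± 0.22) and Spp1 (-3.05 ± 0.25) also had more negative differences at 20 h.

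**Figure D4:**
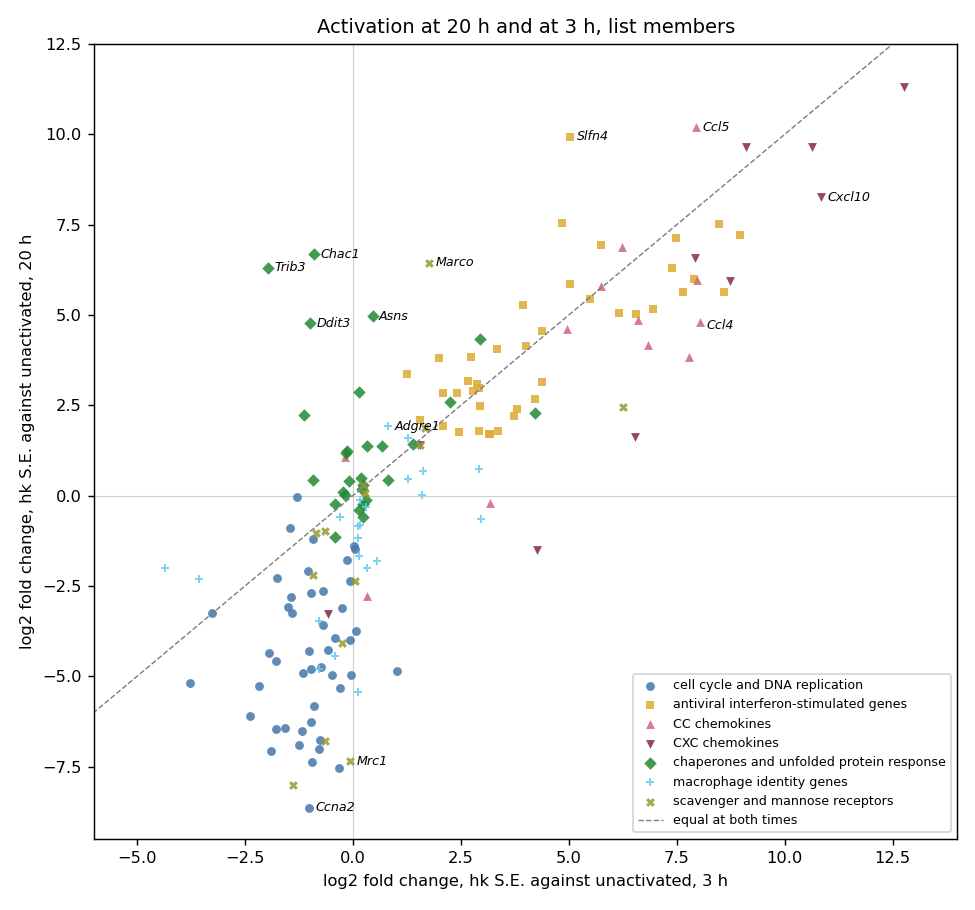
Log2 fold change of activated against unactivated Ahr+/+ BMMs at 3 h (horizontal) and 20 h (vertical) for the tested members of 7 gene lists, with a dashed line of equal values. Most cell cycle genes lie below the line, 42 of 46 being called more negative at 20 h, and Trib3, Chac1, Ddit3 and Asns lie far above it.

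The response was compared with that of BMMs labelled Ahr-/- at 20 h, to see which of these changes differed by genotype. Counts over the whole Ahr gene were not lower in libraries labelled Ahr-/-, with 6.30, 5.44, 8.80 and 8.62 CPM in unactivated and 24.1, 21.3, 25.9 and 28.1 CPM in activated ones. Gene counts do not show which exons the reads lie in, so they do not check the deletion. The study reports that the deletion was checked by PCR and that AhR ligands did not raise Ahrr, an AhR target, in Ahr-/- BMMs. The libraries labelled Ahr-/- at 20 h have identifiers from the number range of unactivated replicate 1 of Ahr+/+ BMMs. Most Ahr+/+ libraries at 20 h come from another range, so genotype and identifier range cannot be told apart here. Activation at 20 h was called for 7898 genes in libraries labelled Ahr-/- (54.3%), 4115 higher (28.3%) and 3783 lower (26%). Of 4347 genes higher in Ahr+/+ BMMs, 3527 (81.1%) were also higher in those labelled Ahr-/- (85.7% of the genes higher there) and 14 (0.322%) were lower. Of 4173 lower genes, 3309 (79.3%) were lower in both, 87.5% of the genes lower in the libraries labelled Ahr-/-. A test of the difference between the genotypes called 641 genes (4.41%), 338 (2.33%) more positive and 303 (2.08%) more negative in Ahr+/+ BMMs. Scaled to total counts, these were 265 and 440. Without activated replicate 2 of the libraries labelled Ahr-/-, 425 genes were called, and with the replicate number as a block within genotype, 1505.

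Genes more positive in Ahr+/+ BMMs included some of the antiviral interferon-stimulated genes. Mx1, an antiviral GTPase, was at 6.77, 10.1, 4.30 and 6.59 CPM in unactivated and 577, 637, 450.2 and 514 CPM in activated Ahr+/+ libraries, and at 4.54, 6.25, 9.65 and 10.6 CPM and 75.5, 52.9, 211 and 151 CPM in those labelled Ahr-/-. The log2 difference was 2.33 ± 0.51 (adjusted p = 0.0014). For Rsad2 it was 2.21 ± 0.58 (adjusted p = 0.0088), and for Isg15 1.32 ± 0.30 (adjusted p = 0.002). The call for Rsad2 was lost without activated replicate 1, 2 or 4 or unactivated replicate 1, 3 or 4 of Ahr+/+ BMMs, and without activated replicate 1 or 2 or unactivated replicate 3 or 4 of those labelled Ahr-/- (1.91 to 2.23). Of 40 antiviral genes, 8 (20.0%, against 2.33% of all genes) had a larger difference in Ahr+/+ BMMs and none a smaller one, with a median of 0.81 against -0.014 for all genes. Of 18 interferon-inducible GTPases, 0 were called in this comparison by edgeR or by DESeq2, although the median was 0.80. At an unadjusted p below 0.05, 4 of them were more positive by edgeR and 8 by DESeq2. For the antiviral list these counts were 27 and 29, and DESeq2 called 15 of the 40 genes. Soat2 (2.22 ± 0.35) and Ccl5 (1.58 ± 0.31) also had larger differences in Ahr+/+ BMMs. Serpinb6b and Cytip fell in both genotypes, less so in Ahr+/+ BMMs (differences 3.34 ± 0.43 and 2.50 ± 0.32), with log2 fold changes of -3.22 against -6.55 and of -4.00 against -6.49.

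More negative in Ahr+/+ BMMs was Trem1, which amplifies TLR signals, at 4.85, 7.14, 5.22 and 6.54 CPM in activated Ahr+/+ libraries and 20.1, 27.8, 12.8 and 17.99 CPM in those labelled Ahr-/- (difference -2.54 ± 0.35, adjusted p = 1.9e-06). Cish, a feedback inhibitor of STAT5, had a log2 fold change of 1.01 in Ahr+/+ BMMs and 3.44 in those labelled Ahr-/-, a difference of -2.43 ± 0.46. Its call within Ahr+/+ BMMs was lost without activated replicate 1, 2 or 4 or unactivated replicate 3 or 4 (0.886 to 1.02). Pole, a DNA polymerase, and Klhl6 fell further in Ahr+/+ BMMs, with differences of -1.97 ± 0.36 and -1.81 ± 0.33. Gatm, of creatine synthesis, was not called in Ahr+/+ BMMs (-0.12 ± 0.22, adjusted p = 0.65) and rose in those labelled Ahr-/- (1.74 ± 0.22), a difference of -1.86 ± 0.31. Mki67 had a log2 fold change of -3.99 in Ahr+/+ BMMs and -2.66 in those labelled Ahr-/-, a difference of -1.32 ± 0.25. The difference was not called for Il6, whose error was wide (0.85 ± 1.16, adjusted p = 0.76), for Ptgs2 (0.84 ± 0.49, adjusted p = 0.33) or for Il1b (-1.05 ± 0.39, adjusted p = 0.078).

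**Figure D5:**
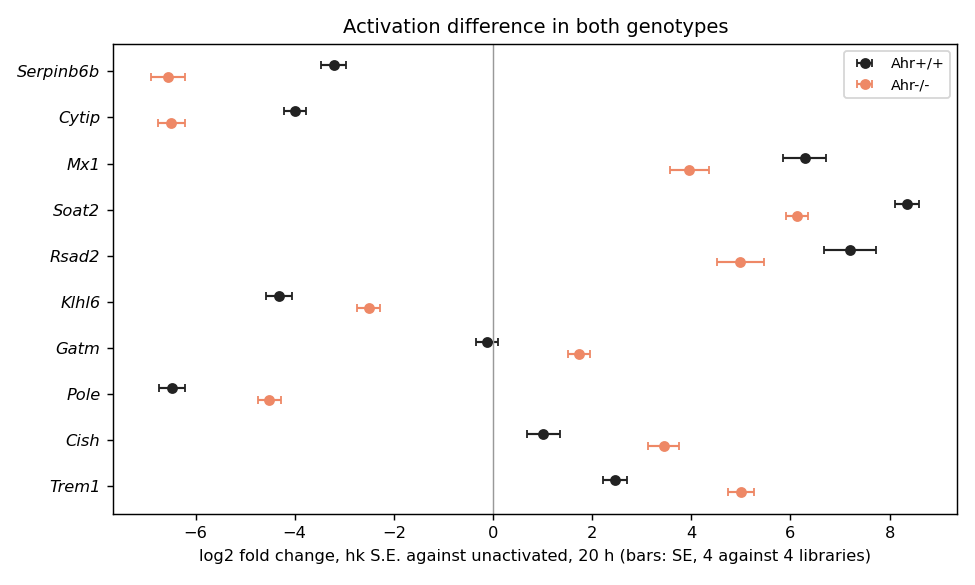
Log2 fold change of activated against unactivated BMMs at 20 h in Ahr+/+ libraries (black) and libraries labelled Ahr-/- (orange), with approximate SE, for the 5 genes with the largest called difference between the genotypes in each direction. Mx1, Soat2 and Rsad2 lie further right in Ahr+/+ BMMs, and Gatm lies near 0 in Ahr+/+ BMMs and to the right of 0 in those labelled Ahr-/-.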

How the data were processed

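Poly(A) RNA libraries were made with a stranded kit and sequenced by the authors, who demultiplexed the reads with bcl2fastq 2.19.0.316, trimmed adapters, aligned the reads to mm10 (GRCm38) with HISAT2 2.1.0 and counted them per GENCODE gene with HTSeq 0.9.1, strand-specific and in intersection-strict mode, per the study's methods and the submitters' processing notes. The deposited counts of 55487 genes per library were used as raw counts. Rows that name no gene were left out of library sizes, and 75.5% to 79.8% of the rows' total in the 8 libraries lay on genes. A table of log2 variance-stabilized values, deposited by the authors, entered only as an alternative. Gene positions, types and exon lengths came from the GENCODE annotation of the same build, in which 93 of the 55487 gene identifiers were not found.

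The 64 libraries were fitted together in edgeR 4.0.16 (R 4.3.3) as 16 group means, after filterByExpr with a minimum count of 10 (14537 genes kept) and TMM normalization. Contrasts were tested with the quasi-likelihood test, and p-values were adjusted over all tested genes, with calls at an adjusted p below 0.01. Errors of log2 fold changes are approximate standard errors, derived from the test. Each is the absolute log2 fold change divided by the square root of the quasi-likelihood F statistic of the 64-library fit. Errors of CPM means are SDs over 4 libraries. CPM per kb is the TMM-normalized CPM divided by the length of the union of exons. For genes at 0 in a group, folds were bounded with a floor of 3 counts over the 4 libraries, and 95% intervals of ratios with 1 to 3 reads in a group are exact binomial ones. Reads of libraries without molecular identifiers are not independent molecules, so both cover counting error only. The fit was tested on simulated counts of 14537 genes for the comparison at 20 h, where it called 4 of 50 genes changed 1.5-fold, 30 of 50 changed 2-fold and 47 of 50 changed 4-fold, with 0 false calls. The simulation changed only 50 genes per fold, used a single dispersion for all genes and gave all other groups the same means. It therefore does not give the error rate for a response in which 58.6% of genes were called.

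The genes named were the 10 with the largest change in each direction at 20 h (mean of at least 10 CPM in the higher group, no overlap), members with the largest change in each gene list (up to 8), 17 anchor genes, the 5 with the largest called difference in each direction against 3 h and against Ahr-/-, and the 10 highest per kb in each group. Kdr and Cdh5 were named from the marker lists, and the promoters of Isg15, Rsad2, Ifit1 and Gbp2 were picked with their values in view. The members and lists were chosen with earlier results of these data known. Alternatives were other size factors, filters, thresholds, libraries and tools (DESeq2 1.42.0, limma 3.58.1).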

Additional observations from a re-analysis of the deposited data

Results flagged for a closer look

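Of 376 pairs of a named gene and a group, 13 held a library far from the other 3, where chance gives about 1 in 20. In unactivated BMMs the highest library stood apart for Ccrl2 at 9.96 CPM (replicate 2), Hk3 at 189 CPM (replicate 4), Hp at 4.45 CPM (replicate 4) and Slamf7 at 81.7 CPM (replicate 3). In activated BMMs the highest library stood apart for Cd69 at 51.8 CPM (replicate 4), Folr2 at 22.8 CPM (replicate 2), Hspa1a at 7.502 CPM (replicate 1), Mrc1 at 1.79 CPM (replicate 2), Pole at 0.566 CPM (replicate 3), Ptgs1 at 0.283 CPM (replicate 3) and Serpinb6b at 4.17 CPM (replicate 4). In activated BMMs the lowest library stood apart for Gbp11 at 1.41 CPM (replicate 3) and Iigp1 at 16.2 CPM (replicate 3). These replicates have no order, and no library was left out for this reason.

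The log2 difference of activated against unactivated Ahr+/+ BMMs differed between 20 h and 3 h by a test of the difference itself (edgeR quasi-likelihood, adjusted over all tested genes). It was more positive at 20 h for Trib3 (8.28), Chac1 (7.58), Inhba (6.70), Slc1a2 (6.63), Lcn2 (6.36), Saa3 (6.15), Ddit3 (5.77), Hp (4.89), Asns (4.51), Il6 (3.48), Atf4 (2.74) and Ccl5 (2.25). It was more negative at 20 h for Gprc5c (-8.89), Nptx1 (-8.69), Cenpf (-8.38), Mrc1 (-7.27), Ptgs1 (-6.16), Trem2 (-4.03), Mki67 (-3.92), Ccl4 (-3.25), Spp1 (-3.05), C1qb (-2.66), Cxcl10 (-2.58), Tnf (-1.57) and Il1b (-1.31).

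Between Ahr+/+ BMMs and those labelled Ahr-/- at 20 h, the same kind of test called differences. It was more positive in Ahr+/+ BMMs for Serpinb6b (3.34), Cytip (2.50), Mx1 (2.33), Soat2 (2.22), Rsad2 (2.21), Ccl5 (1.58) and Isg15 (1.32). It was more negative in Ahr+/+ BMMs for Trem1 (-2.54), Cish (-2.43), Pole (-1.97), Gatm (-1.86), Klhl6 (-1.81) and Mki67 (-1.32).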

How the results depend on the processing

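The 8520 genes called at 20 h became 8061 to 8277 when each of the 8 libraries was left out in turn, and 7480 to 9762 under the other size factors, filters, libraries, tools and the threshold of 0.05. Tested against a change of at least 2-fold, 3110 genes were called (1425 higher, 1685 lower), since that test asks for a larger change. Of the values of named genes at 20 h, 4249 of 4285 kept their direction and their side of the threshold. The exceptions included Cish, whose call was lost when libraries were scaled to total counts (0.65), when the deepest library was thinned (0.97) and when any 1 of 5 libraries was left out, F3, whose call was lost without any 1 of 3 libraries and under 2 other tools, and Abca1, which was called in 7 alternatives. Ftl1, not called, had a log2 fold change of -0.26 with libraries scaled to total counts, and Gatm, not called, had -0.19 to 0.0011 with 1 library left out, the positive value without activated replicate 2. The difference against 3 h was called for 6472 to 6790 genes with 1 library left out and for 6463 to 8320 under the other alternatives. The difference against Ahr-/- was called for 425 to 715 genes with 1 library left out, the lowest count being that without activated replicate 2 of the libraries labelled Ahr-/-. It was called for 1327 genes at a threshold of 0.05, for 942 by DESeq2 and for 445 without a filter on low counts. Scaling to total counts took the call from Rsad2 in this comparison (2.15), and leaving out 1 library did so for 3 libraries of activated and 3 of unactivated Ahr+/+ BMMs and for 2 of each labelled Ahr-/-. Il1b lost its call against 3 h with libraries scaled to total counts. The cause of these changes was not tested.

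Replicate numbers are shared between groups, but the labels do not tie a number to a mouse. Deviations of unactivated and activated libraries of the same number correlated at 0.048, 0.232, 0.094 and 0.253 across genes, 2 of them below 0.1, so the numbers were not treated as pairs, although each library correlated best with its own number except activated replicate 1. With the replicate number as a block, 9595 genes were called at 20 h, 8065 against 3 h and 1505 against Ahr-/-. Fitted on the 8 libraries alone with that block, 9291 genes were called at 20 h. Sequencing depth limits genes near 0 in activated libraries, of which the shallowest held 21933112 counts.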

Other observations

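Across the 14537 tested genes, the log2 fold changes at 20 h had a Pearson correlation of 0.597 (Spearman 0.494) with those at 3 h and of 0.942 (Spearman 0.908) with those of BMMs labelled Ahr-/- at 20 h. These are correlations across genes, which are not independent replicates, and neither pair of comparisons shares a library. Of 1319 processed pseudogenes tested, 129 were called higher and 197 lower, with a median log2 fold change of -0.255, and of 12015 protein-coding genes 3921 were higher and 3738 lower, with a median of 0.033.

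Among the markers of other cell types, 2 genes were chosen here after their values were seen. Kdr, a receptor for vascular endothelial growth factor, was at 3.42, 2.86, 4.30 and 3.50 CPM in unactivated and 55.2, 45.1, 31.1 and 59.3 CPM in activated libraries (3.76 ± 0.39), while Cdh5 of the same list was at 0.210 ± 0.0946 and 0.163 ± 0.0590 CPM. Dcn (decorin), a matrix proteoglycan from the fibroblast list, was at 0, 0, 0.0355 and 0 CPM and 2.07, 2.17, 0.849 and 1.85 CPM (7.94 ± 0.60).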
